A study of Nasonia vitripennis with 79 samples.

Results

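Heads of diploid and haploid males of the parasitoid wasp Nasonia vitripennis were compared at generation F3 of the WOM line, with 5 RNA-seq libraries of each ploidy. These 10 libraries were chosen by their labels (F3, male, head, 1 or 2 chromosome sets) from the 79 of the series. In this wasp, as in other Hymenoptera, an unfertilised egg normally becomes a haploid male and a fertilised egg a diploid female, so a diploid male carries the chromosome number of a female and the body of a male. Sex is set by the splicing of transformer, which is kept in its active form by a maternal supply and directs the splicing of doublesex and fruitless. The head holds the brain, the compound eyes and the antennae, and its transcripts come mostly from neurons, glia, photoreceptors, muscle, fat body and cuticle-forming cells.

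WOM is a neo-polyploid line that was made by knocking down, through RNA interference, a gene that acts in sex determination, and that gene was not analysed here. Both F3 groups came from this line, so the haploid males share its history, and no males from outside the line are part of the comparison. All wasps were taken 1 day after emergence. The labels do not say whether a library holds 1 head or a pool, or whether the libraries came from separate cultures, so the p-values cover the spread among libraries alone, which may in part be technical. The series also holds F15 male heads, F3 male abdomens and heads of F14 diploid females, with 5 libraries in each group used here.

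The haploid libraries were D1, D1A, D3, D4 and D5, the diploid ones D11, D12, D13, D14 and D15, and levels are listed in this order throughout. Totals ran from 17.2 to 24.5 M counts. Library D13 stood apart from the other 9. In 4394 of 10507 tested genes its level was more than 2-fold from the median of the other diploid libraries, against 303 to 672 genes for the same measure in each other library. Its median Pearson correlation (log2 CPM, across genes) with the other libraries was 0.826, against at least 0.96 for each of them. It had 11518 genes with at least 1 count against 12087 to 12547, and its 10 most abundant genes took 11.3% of the counts against 5.03% to 8.43%. The deviation of D13 followed transcript length, from a median of 1.00 (log2 CPM) in the shortest class of transcripts to −0.75 in the longest, whereas the other libraries stayed within 0.29 of their group in every class. CPM are counts scaled to a common library size, after TMM scaling. What set D13 apart was not tested. Where D13 bears on a result, the value without it is given too.

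**Figure D1:**
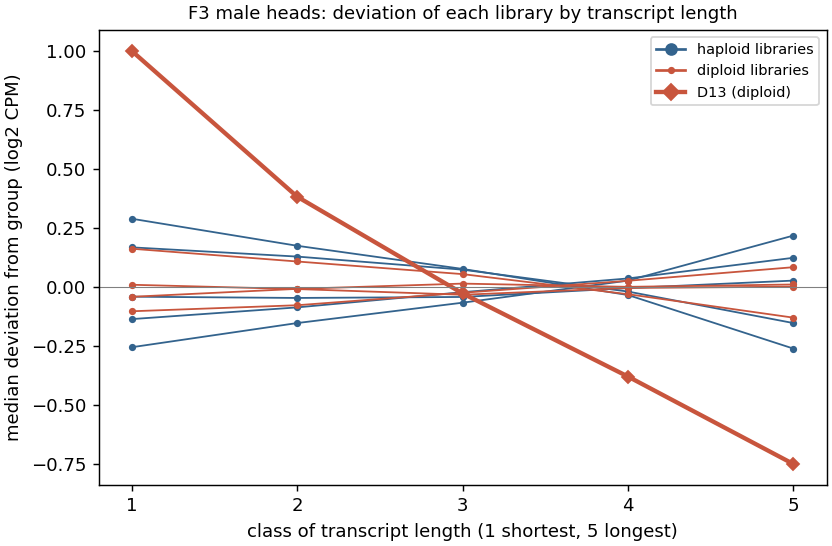
Median deviation of each F3 male head library from the other libraries of its group (log2 CPM, y axis) in 5 classes of transcript length from shortest to longest (x axis), 1 line per library. D13 runs from 1.00 to −0.75. The 9 other libraries stay within 0.29 of 0 with slopes of either sign, D3 from 0.29 to −0.26 and D5 from −0.26 to 0.22.

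Head markers were present in all 10 libraries. The long-wavelength opsin gene Lop1, a photoreceptor pigment, was between 2597 and 9253 CPM, and the synaptic vesicle gene Syt1 was between 483 and 1184 CPM. The germ plasm gene oskar was between 2.07 and 11.5 CPM. None of these 3 genes was called between the ploidies (adjusted p from 0.20 to 0.94, edgeR's quasi-likelihood test). For oskar this does not show equal levels. It averaged 3.70 CPM in haploids and 7.33 CPM in diploids, with overlapping groups. Its log2 fold change was 0.99 ± 0.42 (SE) with all libraries and 0.83 ± 0.41 without D13. Summed over 3 muscle genes (Tm1, Tm2 and Zasp66), the level was 661 to 1146 CPM in haploids and 574 to 1363 CPM in diploids. Summed over 3 hexamerin genes, storage proteins of fat body and hemolymph, it was 11.1 to 14.02 CPM in haploids and 9.83 to 14.9 CPM in diploids other than D13, which had 32.4. Summed over 3 neuronal genes it was 1035 to 1526 CPM in haploids and 974 to 1499 CPM in diploids other than D13, which had 642. Apart from D13, the sums overlapped between the groups. In bulk tissue, fewer cells of a type and less RNA per cell cannot be told apart, and CPM are shares of a library, so a change in total RNA per head is not measured.

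With all 10 libraries, edgeR's quasi-likelihood test called 378 of 10507 genes (3.6%) at a Benjamini-Hochberg adjusted p under 0.05. Of these, 219 were higher in diploids (2.08% of the genes tested) and 159 were lower (1.51%), and 2368 genes were at an unadjusted p under 0.05. Without D13 the test called 1272 of 10609 genes (12%), with 692 higher (6.52%) and 580 lower (5.47%). Of the 378 genes called with all libraries, 377 were called without D13 as well, and all 377 had the same sign. The larger number therefore came with 1 library fewer. Leaving out 1 of the other 9 libraries instead gave 264 called genes without D14 and between 48 (without D4) and 166 (without D1) for the rest. By transcript length, 3.49% of the shortest class were called higher and 0.813% lower with all libraries, against 0.717% and 1.48% of the longest. Without D13 the shares were 7.41% and 4.21% in the shortest class, against 3.35% and 4.78% in the longest. The part of transcript length in the calls was not tested.

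With all libraries, the genes that rose in diploids had a median level of 6.30 CPM in haploids, against 28.7 CPM for all tested genes. Genes that fell had a median of 97.3 CPM in haploids. The haploid level is 1 side of the contrast that chose these genes. The choice itself thus favours low haploid levels in the former and high ones in the latter. The median size of the change was 1.38 (log2) in the former and 0.92 in the latter, and 147 and 67 of them changed at least 2-fold. Without D13 the median haploid level was 12.4 CPM for higher genes and 72.9 CPM for lower genes, against 28.2 CPM for all, the median sizes were 0.76 and 0.67, and 228 and 140 genes changed at least 2-fold. In 205 of the 219 higher genes and 150 of the 159 lower genes the haploid and diploid libraries did not overlap, against 10.7% of all tested genes. The gene table gives most genes only an identifier: 12 of the higher and 8 of the lower called genes have a symbol of their own. Long noncoding RNA genes were 5.02% of the higher and 1.89% of the lower genes, against 3% of all tested genes.

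Some cytochrome P450 genes fell in diploid heads, and no member of the family was called higher. P450 enzymes oxidise hormones, pheromones, fatty acids and foreign compounds, and the CYP6 and CYP9 families of insects are best known for the breakdown of plant toxins and insecticides. Of 39 tested P450 genes, 5 were lower and 0 were higher with all libraries, and 10 were lower and 0 were higher without D13. Of all tested genes, 1.51% were called lower with all libraries and 5.47% without D13. The family as a whole was spread on both sides of 0, with 20 positive and 19 negative estimates with all libraries. Over the 39 genes, the median log2 fold change was 0.03 with all libraries and −0.11 without D13, against 0.02 and 0.01 over all tested genes. Reads that fit several near-identical family members are divided among them by RSEM, so single values in such families, here and in the receptor, esterase and protease families, are uncertain to that extent.

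CYP6AQ4 was the P450 gene with the smallest adjusted p. Its level was 358, 240, 284, 479 and 315 CPM in the haploid libraries and 125, 50.4, 88.1, 81.8 and 54.5 CPM in the diploid libraries. Every diploid library was below every haploid library. The mean was 4.19-fold lower in diploids, with a log2 fold change of −2.07 ± 0.28 (SE, n = 5 and 5, adjusted p = 0.0071), or −2.09 ± 0.31 (adjusted p = 0.0038) without D13, and the call held whichever of the 10 libraries was left out. CYP6CK11 was at 18.7, 20.9, 20.4, 38.5 and 22.8 CPM in haploids and at 12.8, 4.80, 10.4, 11.3 and 8.97 CPM in diploids. The groups did not overlap, D4 was far above the other haploids, and the log2 fold change was −1.33 ± 0.28 (adjusted p = 0.039), or −1.35 ± 0.30 (adjusted p = 0.019) without D13. CYP6CK6 was at 4.40 to 7.97 CPM in haploids and at 0.107 to 1.84 CPM in diploids. It is among the P450 genes counted as lower in both fits. In both it passed the filter on low counts only through the haploid libraries, so nothing is read from its test.

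CYP4AB8 fell by 0.75 (SE 0.12, adjusted p = 0.016) and CYP336B1 by 0.98 (SE 0.23, adjusted p = 0.046), both without overlap, and by 0.73 and 0.87 without D13. Of the 5 P450 calls, CYP4AB8 was lost without D4 (adjusted p = 0.058), CYP336B1 without any library other than D13 and D14 (0.061 to 0.10), and CYP6CK11 and CYP6CK6 without any library other than D13 (0.053 to 0.12). All 5 were called without D13, and of these CYP6CK11 was lost when D15 was left out too (0.053) and CYP336B1 when D11 or D12 was (0.062 to 0.065). In CYP9P3 and CYP6AQ9, D13 lay above every haploid library. CYP6AQ9 was between 6.48 and 10.6 CPM in haploids and between 2.19 and 4.08 CPM in the other 4 diploids, but at 19.8 CPM in D13. CYP6AQ9 fell by 1.43 (SE 0.22, adjusted p = 0.0036) and CYP9P3 by 1.10 (SE 0.16, adjusted p = 0.0033) without D13, and they had adjusted p of 0.66 and 0.31 with it. CYP6AS30, CYP4AB14 and CYP9AG4 were the other 3 genes lower without D13, at −0.68, −0.57 and −0.67.

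Esterases and glutathione S-transferases gave no call with all libraries and gave calls without D13. Carboxylesterases cleave ester bonds in lipids, pheromones and insecticides. Of 9 tested carboxylesterase genes, 0 were called with all libraries, and 4 were lower and 0 higher without D13. Among all tested genes, 5.47% were called lower and 6.52% higher without D13. CCE-A8 was the one with the largest fall, −1.79 ± 0.47 (adjusted p = 0.034, n = 4 and 5), from a range of 5.24 to 11.9 CPM in haploids to 1.28 to 6.43 CPM in diploids, and CCE-A9, CCE-A5 and CCE-A6 fell by 0.79, 0.49 and 0.28. With D13 kept, CCE-A8 was at −1.77 (adjusted p = 0.053), and it was called when D11 was left out instead (adjusted p = 0.034). Each of these 4 calls was lost in 6 of the 9 fits that left out 1 more library (adjusted p from 0.050 to 0.13), and D12, D15 and D4 were among the 6 for all 4 genes.

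Glutathione S-transferases, which join glutathione to reactive compounds, moved in both directions. Without D13, 3 of 16 tested genes were higher and 3 were lower, against 6.52% and 5.47% of all tested genes. With all libraries 0 of the 16 were called. The 3 higher genes were of the sigma class. GstS5 was at 50.1, 32.99, 53.9, 47.8 and 28.2 CPM in haploids and at 103.4, 92.3, 497, 92.7 and 93.2 CPM in diploids, so that D13 was far above the other diploids, which already lay above every haploid. Its log2 fold change was 1.18 ± 0.18 (adjusted p = 0.0033) without D13 and 2.05 ± 0.52 (adjusted p = 0.059) with it. GstS8 rose by 1.08 ± 0.20 (adjusted p = 0.0084) and GstS3 by 0.65 ± 0.16 (adjusted p = 0.025) without D13. The 3 lower genes were the theta class genes GstT2 (−0.82 ± 0.19, adjusted p = 0.02) and GstT1 (−0.60 ± 0.17, adjusted p = 0.042) and the microsomal gene GST-mic1 (−0.63 ± 0.16, adjusted p = 0.029). The calls of GstS5 and GstS8 held in all 9 fits that left out 1 more library, that of GstT2 was lost without D12 or D15 (0.053 to 0.061), and that of GstS3 without D11, D12, D15, D1A, D4 or D5 (0.052 to 0.078).

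**Figure D2:**
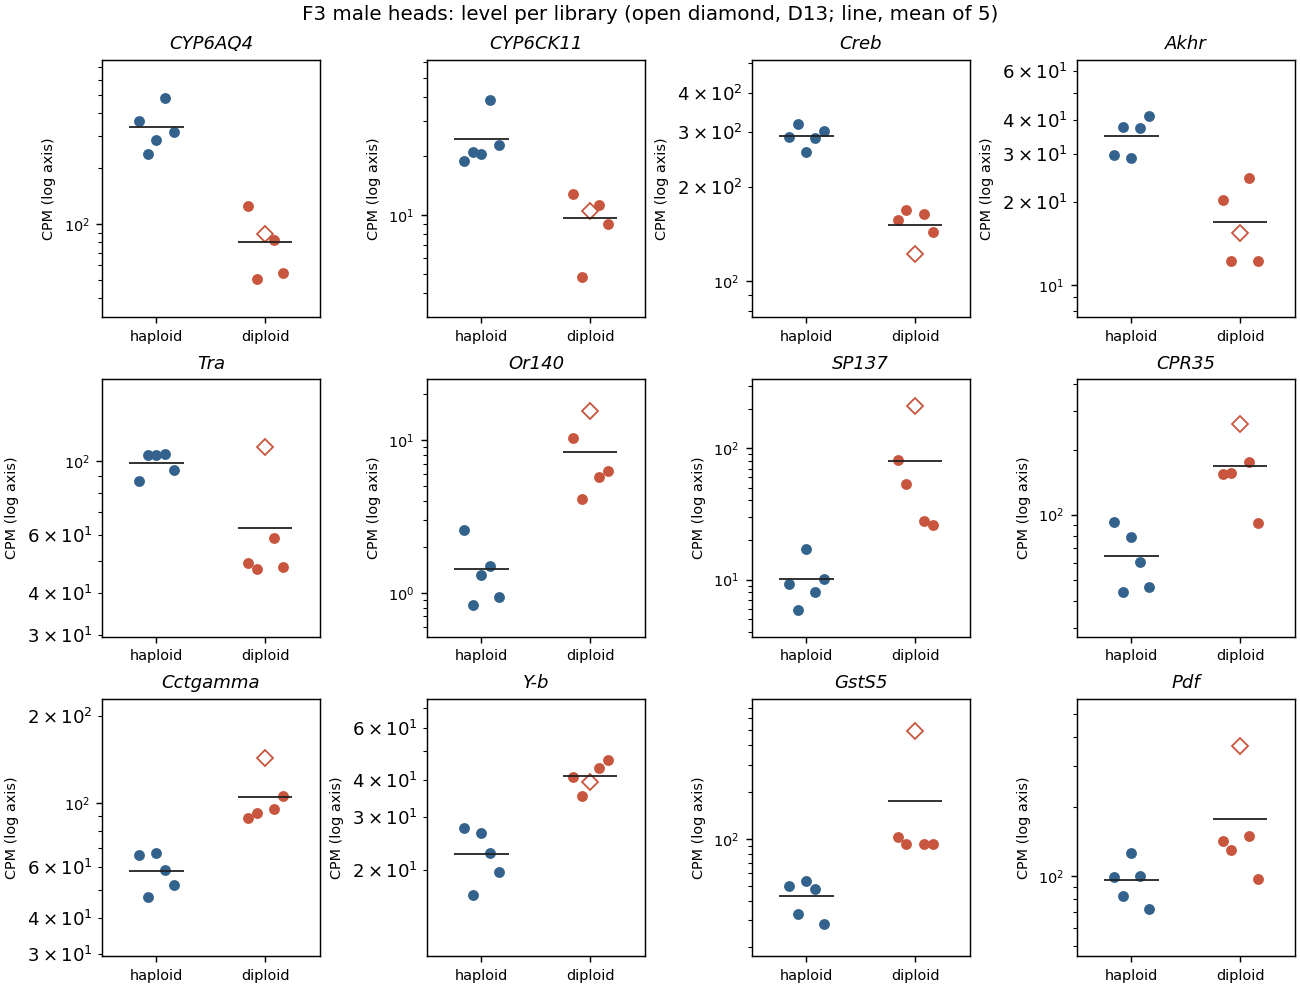
Level of 12 genes (CPM, log axis) in each of the 5 haploid and 5 diploid F3 male head libraries, with the mean of each group as a line and D13 as an open diamond. CYP6AQ4, CYP6CK11, Creb and Akhr lie lower in every diploid library than in every haploid one, and D13 stands far from the other diploids in Tra, SP137, GstS5 and Pdf.

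Of the odorant receptor genes, Or140 rose in diploid heads. These receptors, which form channels with a shared co-receptor in the sensory neurons of the antennae, make up a large family in this wasp, and most were too low to test: of 214 in the gene table, 24 passed the filter on low counts with all libraries and 29 without D13. Of the 24, 3 were higher and 0 lower, and the same 3 were called of the 29. Among all tested genes, 2.08% were called higher with all libraries and 6.52% without D13. Or140 was at 2.56, 0.827, 1.31, 1.5 and 0.935 CPM in haploids and at 10.3, 4.11, 15.6, 5.74 and 6.25 CPM in diploids. All diploids lay above all haploids, and the log2 fold change was 2.56 ± 0.44 (adjusted p = 0.019), or 2.23 ± 0.36 (adjusted p = 0.0047) without D13. The other called receptor genes were Or230 and Or156. Or230 had 0 to 7 counts in each haploid library and 14 to 49 in each diploid library, and Or156 had 2 to 5 and 11 to 24. Both passed the filter on low counts only through the diploid libraries, so nothing is read from their tests. A gene had to be high in 1 group to pass the filter, so the 24 genes do not stand for the 214.

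With all libraries the call of Or140 was lost without D1A, D4 or D5 (adjusted p from 0.061 to 0.063). Without D13, Or140 was called in all 9 further fits. Of 7 tested gustatory receptor genes, contact taste receptors, 0 were called with all libraries. Gr7 was lower without D13 (−1.49 ± 0.36, adjusted p = 0.024), and that call was lost without D11, D12, D15, D1A, D4 or D5 (0.050 to 0.068).

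Creb fell in every diploid library. It encodes a transcription factor that responds to cyclic AMP and calcium, and in Drosophila its relatives are needed for long-term memory. Its level was 290, 320, 259, 287 and 302 CPM in haploids and 157, 169, 123, 165 and 144 CPM in diploids. The highest diploid was well below the lowest haploid. Its log2 fold change was −0.95 ± 0.13 (adjusted p = 0.0070) with all libraries and −0.86 ± 0.10 (adjusted p = 0.00091) without D13, and it was called whichever library was left out. Akhr, the receptor for adipokinetic hormone, which mobilises lipid and sugar from the fat body, was at 29.9, 37.6, 28.9, 37.2 and 41.2 CPM in haploids and at 20.5, 12.2, 15.4, 24.6 and 12.2 CPM in diploids. The groups did not overlap, and Akhr fell by 1.04 (SE 0.22, adjusted p = 0.036) with all libraries and by 1.00 (SE 0.22, adjusted p = 0.018) without D13. Its call was lost without any library other than D13 and D14 (0.051 to 0.098), and without D12 once D13 was out (0.051).

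Syx17, a SNARE protein that joins autophagosomes to lysosomes in Drosophila and mammals, fell by 0.90 (SE 0.22, adjusted p = 0.049), from 50.5 to 105.3 CPM in haploids to 29.2 to 48.6 CPM in diploids. With D13 left out it fell by 0.82 (SE 0.21, adjusted p = 0.031). The call was lost without any library other than D13 and D14 (0.056 to 0.11), and, with D13 out, without D11, D12, D15, D1A or D4 (0.050 to 0.097). Of the neuropeptide genes, Pdf, which encodes a peptide of the circadian clock neurons, was at 72.5 to 126 CPM in haploids and at 97.6 to 149 CPM in diploids other than D13, which had 364 CPM. Pdf was not called (0.88 ± 0.33, adjusted p = 0.16, and 0.45 ± 0.17, adjusted p = 0.11, without D13), although it was with both D13 and D3 left out (adjusted p = 0.035). ACP, a peptide related to adipokinetic hormone and corazonin, was at 31.9 to 38.99 CPM in haploids other than D1A (70.5 CPM) and at 21.02 to 26.1 CPM in diploids other than D13 (160 CPM). Its log2 fold change was 0.32 ± 0.58 (adjusted p = 0.75) with D13 and −0.75 ± 0.23 (adjusted p = 0.063) without it, so that the sign of the estimate turned with 1 library. Of 11 tested nicotinic acetylcholine receptor genes 0 were called in either fit, and of 10 other channel and synapse genes 0 were called with all libraries. Nsf, which recycles SNARE complexes, was higher without D13 (0.42 ± 0.12, adjusted p = 0.042), a call lost in 8 of the 9 further fits, the fit without D14 being the exception (0.050 to 0.13).

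**Figure D3:**
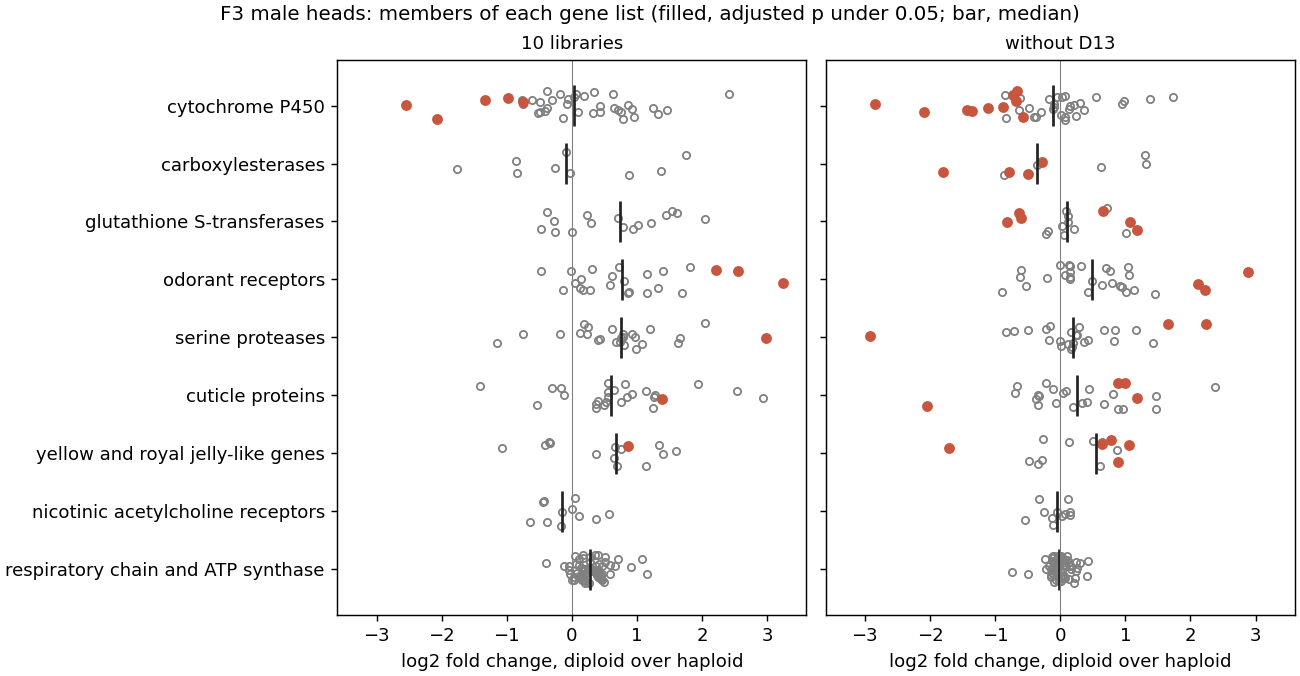
Log2 fold change (diploid over haploid F3 male heads) of each tested member of 9 gene lists with all libraries (left) and without D13 (right). Filled points passed an adjusted p of 0.05 and bars are list medians; P450 calls lie on the lower side in both panels, and the respiratory chain median moves from 0.27 to −0.02.

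Serine protease, cuticle and yellow family genes gave 3 calls with all libraries, each of them higher in diploids. Among all tested genes, 2.08% were called higher with all libraries, and 6.52% higher and 5.47% lower without D13. Of 25 tested serine protease genes 1 was higher, SP137. Its level was 9.31, 5.88, 16.96, 8.08 and 10.2 CPM in haploids and 81.3, 53.7, 209, 28.1 and 25.8 CPM in diploids. The groups did not overlap and the diploids differed among themselves by a wide margin. SP137 rose by 2.98 ± 0.59 (adjusted p = 0.032) with all libraries and by 2.25 ± 0.40 (adjusted p = 0.01) without D13. Without D13, 2 of 26 protease genes were higher and 1, SP100, was lower. SP38 rose (1.65 ± 0.45, adjusted p = 0.038). SP100 was between 3.04 and 4.04 CPM in haploids and between 0.107 and 1.06 CPM in diploids other than D13 (6.29 CPM). Without D13, SP100 passed the filter on low counts only through the haploid libraries, so nothing is read from its test. The call of SP137 with all libraries was lost without D1, D11, D12, D1A, D4 or D5 (0.059 to 0.096), and that of SP38 without D13 was lost in 7 of 9 further fits, all but those without D14 or D3 (0.056 to 0.12). With D13 kept, SP38 was not called (adjusted p = 0.065), except when D14 was left out (adjusted p = 0.030). SP137 was called in all 9 further fits.

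Among 26 tested cuticle protein genes, CPR35 rose. Proteins with its domain bind chitin in the exoskeleton. CPR35 was at 92.8, 43.8, 79.2, 60.4 and 46.2 CPM in haploids and at 155, 156, 263, 175 and 91.2 CPM in diploids. The highest haploid and the lowest diploid library overlapped slightly, and the log2 fold change was 1.38 ± 0.30 (adjusted p = 0.039), or 1.18 ± 0.25 (adjusted p = 0.016) without D13. Without D13, 3 cuticle genes were higher and 1 was lower, against 6.52% and 5.47% of all tested genes. The peritrophin-like cuticle genes Cpap3-d1 and Cpap3-d2 rose by 0.89 ± 0.26 (adjusted p = 0.048) and 1.00 ± 0.23 (adjusted p = 0.018). The lower gene was the Tweedle gene TWDL1, at 0.504 to 0.804 CPM in diploids other than D13 (2.61 CPM). Without D13, TWDL1 passed the filter on low counts only through the haploid libraries, so nothing is read from its test. CPR35 was lost with all libraries without D11, D12, D14, D1A, D3, D4 or D5 (0.058 to 0.11), and CPR35 and Cpap3-d2 were lost without D12 once D13 was out (0.051 and 0.063). Cpap3-d1 was lost in 7 of 9 further fits, all but those without D3 or D5 (0.065 to 0.11).

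In the yellow and royal jelly-like family, whose members include pigmentation genes of insects and the nutritive proteins of the honeybee, 1 of 14 genes was higher with all libraries, and 4 were higher and 1 lower without D13. The shares over all tested genes were 2.08% higher with all libraries, and 6.52% higher and 5.47% lower without D13. Y-b was at 27.7, 16.5, 26.6, 22.8 and 19.7 CPM in haploids and at 41.1, 35.3, 39.4, 43.8 and 46.8 CPM in diploids. D13 lay inside the diploid range here, the groups did not overlap, and the log2 fold change of Y-b was 0.86 ± 0.16 (adjusted p = 0.026), or 0.90 ± 0.15 (adjusted p = 0.0060) with D13 left out. Without D13, Mrjpl3 rose by 1.06 ± 0.23 (adjusted p = 0.016), Y-e3 by 0.78 ± 0.21 (adjusted p = 0.036) and Y-x1c by 0.64 ± 0.17 (adjusted p = 0.033), whereas Mrjpl5 fell by 1.70 (SE 0.20, adjusted p = 0.001), to 7.71 to 15.9 CPM from 38.2 to 53.7 CPM, with D13 at 50.3 CPM. The call of Y-b with all libraries was lost without D11, D15, D1A, D4 or D5 (0.056 to 0.083), and that of Y-x1c without D13 was lost without any further library other than D3 and D14 (0.055 to 0.12). Y-b, Mrjpl3 and Mrjpl5 were called in all 9 further fits.

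A few genes of protein synthesis, protein folding and splicing rose by small amounts. Cctgamma, a subunit of the chaperonin that folds actin and tubulin, was at 66.1, 47.1, 66.8, 58.5 and 51.7 CPM in haploids and at 88.7, 92.4, 144, 95.3 and 106.1 CPM in diploids. The groups did not overlap, and Cctgamma rose by 0.86 ± 0.17 (adjusted p = 0.031) with all libraries and by 0.73 ± 0.12 (adjusted p = 0.0046) without D13. Cct7, another subunit of this complex, rose by 0.41 ± 0.11 (adjusted p = 0.037) in the fit without D13, and was not called with it. Farsb, a subunit of the enzyme that loads phenylalanine onto its transfer RNA, rose by 0.48 ± 0.11 (adjusted p = 0.048), and the spliceosome subunit gene Sf3b3 rose by 0.45 ± 0.11 (adjusted p = 0.048). Sf3b3 was at 45.6 to 57.5 CPM in haploids and at 70.0 to 74.9 CPM in diploids, a narrow spread in both groups. Ahcy, which removes the by-product of methylation reactions, rose by 1.37 ± 0.29 (adjusted p = 0.036), from 3.905 to 6.36 CPM to 9.02 to 23.9 CPM, and the nuclear pore gene Ndc1 rose by 1.38 ± 0.31 (adjusted p = 0.043), from 0.665 to 1.67 CPM to 2.23 to 3.84 CPM. Without D13 the log2 fold changes were 0.47 (Farsb), 0.46 (Sf3b3), 1.07 (Ahcy) and 1.45 (Ndc1), with adjusted p from 0.0060 to 0.015.

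Of 7 genes of DNA replication and the cell cycle, 6 were tested with all libraries and did not pass, among them Cdk4 (0.66 ± 0.35, adjusted p = 0.28). Cdk4, a kinase that drives cells into division, was higher without D13 (0.90 ± 0.21, adjusted p = 0.020). It was at 2.36 to 3.72 CPM in haploids and at 4.39 to 7.18 CPM in diploids other than D13 (1.55 CPM). The seventh gene, cycB, had 3 to 6 counts in each haploid library and 0 to 13 in each diploid library. It passed the filter on low counts only without D13 and only through the diploid libraries, so nothing is read from its test. With all libraries the calls of Ahcy, Farsb, Sf3b3 and Ndc1 were lost without any library other than D13 (0.051 to 0.14), and that of Cctgamma without D11, D12, D15, D1A, D4 or D5 (0.050 to 0.087). With D13 out, Cctgamma, Farsb, Sf3b3 and Ahcy were called in all 9 further fits. Ndc1 was lost without D12 (0.058), Cdk4 without D11 or D12 (0.059 to 0.069), and Cct7 without any further library other than D1A and D3 (0.059 to 0.10).

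Transformer was lower in the diploid heads other than D13. Tra, which as a protein directs female splicing, was at 87.04, 103.8, 103.9, 104.8 and 93.9 CPM in haploids and at 49.4, 47.4, 110, 58.6 and 47.8 CPM in diploids. D13 was above every haploid and the other 4 diploids were below every haploid. Its log2 fold change was −0.66 ± 0.24 (adjusted p = 0.14) with all libraries and −0.95 ± 0.10 (adjusted p = 0.00081) without D13, a call that held in all 9 further fits. Dsx (−0.10 ± 0.12, adjusted p = 0.64) and Fru (−0.06 ± 0.24, adjusted p = 0.89), the targets of Tra, were not called, nor were they without D13 (−0.06 ± 0.11 and −0.14 ± 0.24). Gene-level counts do not separate the female and male splice forms of these 3 genes.

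The respiratory chain genes, with the few ribosomal and immune genes tested, gave no call. Of 64 tested genes of the respiratory chain and ATP synthase 0 were called in either fit, and their median log2 fold change was 0.27 with all libraries and −0.02 without D13. For the 4 ribosomal protein genes with a symbol, 0 called, it was 0.77 and −0.25. For 6 immune genes, 0 called, it was 0.49 and 0.04. All 3 medians were higher in the fit that held D13, the library in which short transcripts were high, and the part of transcript length in them was not tested.

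The 4 unnamed genes given here had the largest rises and the largest falls under the same conditions on level and overlap. All 4 were picked after their values were seen, and the sources used here give them no product. LOC100122545, LOC100119764 and LOC100116358 were called whichever library was left out. LOC100122545 was at 2657, 3370, 1908, 2441 and 3670 CPM in haploids and at 596, 412, 739, 1034 and 464 CPM in diploids, a 4.33-fold lower mean (−2.11 ± 0.29, adjusted p = 0.0070, and −2.15 ± 0.30, adjusted p = 0.0028, without D13). LOC100119764 was at 277 to 535 CPM in haploids and at 34.96 to 134 CPM in diploids (−2.17 ± 0.35, adjusted p = 0.015, and −2.28 ± 0.38, adjusted p = 0.0073, without D13). LOC100116358 was at 5.52, 15.6, 16.96, 8.50 and 20.8 CPM in haploids and at 327, 268, 1282, 214 and 130 CPM in diploids, with a log2 change of 5.04 ± 0.71 (adjusted p = 0.0080), or 4.13 ± 0.42 (adjusted p = 0.00098) without D13. LOC100679758 was at 0.321 to 1.47 CPM in haploids, with at most 28 counts in a library, and at 2.87 to 28.7 CPM in diploids. With all libraries it passed the filter on low counts only through the diploid libraries, so nothing is read from that test. Without D13 its log2 fold change was 3.58 ± 0.52 (adjusted p = 0.0034). None of the 4 had overlapping groups.

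Abdomens of F3 males gave the same contrast in libraries that the heads do not share. The labels do not tie a head to an abdomen of the same animal. There the test called 2158 of 10995 genes (19.6%), 943 higher (8.58%) and 1215 lower (11.1%) in diploids, and 1495 to 2354 with 1 library left out, lowest without D17 and highest without D9. Of the 219 genes higher in diploid heads, 204 were tested in abdomens, where 85.3% had a positive log2 fold change and 37.3% were called higher, against 49.4% and 8.9% of all genes tested in both. Of the 159 genes lower in diploid heads, 156 were tested in abdomens, where 16% had a positive log2 fold change and 50.6% were called lower, against 11.4% of all. These head genes were 8.06% of the genes called higher and 6.5% of those called lower in abdomens. Taken without D13, the head lists gave 81.1% and 16.7% positive, with 29.3% of the higher genes called higher and 43.2% of the lower genes called lower.

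Among the named genes, CYP6AQ4 (−1.61 ± 0.30, adjusted p = 0.0060), CYP6CK6 (−1.78 ± 0.39, adjusted p = 0.011) and Creb (−0.71 ± 0.11, adjusted p = 0.0028) were lower in diploid abdomens. CYP6CK11 was called lower as well (−2.27 ± 0.47, adjusted p = 0.0090), but near the floor, at a mean of 0.303 CPM in diploid and 1.49 CPM in haploid abdomens. CPR35 (2.19 ± 0.32, adjusted p = 0.0025), Y-b (0.99 ± 0.15, adjusted p = 0.0025) and Cctgamma (0.48 ± 0.10, adjusted p = 0.0075) rose there too, and Tra fell by 0.73 (SE 0.15, adjusted p = 0.0075). Or140 (0.49 ± 0.43, adjusted p = 0.46), Akhr (−0.61 ± 0.30, adjusted p = 0.18) and SP137 (−1.14 ± 0.55, adjusted p = 0.16) were not called in abdomens. LOC100679758, higher in diploid heads, was lower in diploid abdomens, at 0.907 CPM on average against 6.39 CPM in haploid ones (−2.81 ± 0.36, adjusted p = 0.0016). Whether head and abdomen differ in any of these changes was not tested.

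**Figure D4:**
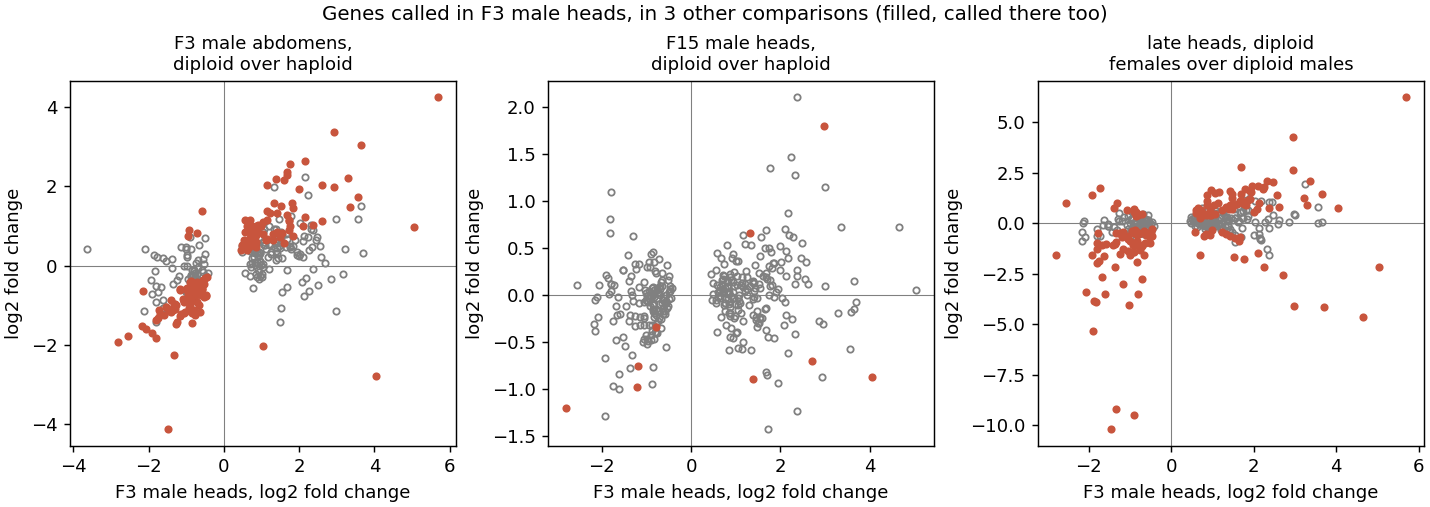
Log2 fold change of the 378 genes called in F3 male heads (x axis) against their log2 fold change in F3 male abdomens, F15 male heads and late heads of diploid females over diploid males (y axes), with genes also called there filled. Most points of the abdomen panel lie at the lower left or the upper right, and the F15 panel is spread around 0.

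In F15 male heads of the same line fewer genes passed the test. The fit on these 10 other libraries called 128 of 10524 genes (1.22%), 39 higher (0.371%) and 89 lower (0.846%), and 17 to 426 with 1 library left out, lowest without D101 and highest without D112. Of the genes higher in F3 diploid heads 57.8% had a positive log2 fold change at F15, and of those lower 39.9%, against 49.9% of all genes. Only 2 of the 206 tested genes of the first kind were called higher at F15 and 3 lower, and of the 158 of the second kind 4 were called lower and 0 higher. With the head lists taken without D13, 53.3% and 41.6% were positive at F15, against 49.8% of all, and of 666 higher genes 5 were called higher and 6 lower, and of 572 lower genes 13 lower and 2 higher. SP137 was called higher at F15 too, at 1.80 ± 0.33 (adjusted p = 0.035).

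The difference between the F3 and the F15 effect was tested in 1 fit over the 20 male head libraries. It called 393 of 11010 genes (3.57%), 250 with a positive difference, F3 minus F15 (2.27%), and 143 with a negative one (1.3%). Without D13 it called 865 of 11096 (7.8%), with 379 (3.42%) and 486 (4.38%), so the split between the directions turned over. Since this fit holds the F3 libraries that chose the genes, its calls for them are not separate support. Of the 56 named genes with a value, 15 were called. CYP6AQ4 averaged 339 CPM in F3 haploids, 80.6 in F3 diploids, 717 in F15 haploids and 773 in F15 diploids. The low level was thus that of the F3 diploids, and the difference of effects was −2.18 ± 0.39 (adjusted p = 0.0056). Or140 averaged 1.44, 8.41, 1.87 and 2.09 CPM in the same order, with a difference of 2.37 ± 0.51 (adjusted p = 0.015). LOC100122545 averaged 2844, 652, 918 and 910 CPM, so here the F3 haploids stood apart, and the difference was −2.11 ± 0.31 (adjusted p = 0.0020).

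CPR35 and LOC100679758 were called in opposite directions at F3 and F15, the latter read at F3 only from the fit without D13. CPR35 averaged 65.0 CPM in F3 haploids and 169 in F3 diploids, but 165 in F15 haploids and 89.3 in F15 diploids, where it was lower in diploids by 0.89 (SE 0.16, adjusted p = 0.029). The difference of effects was 2.26 ± 0.34 (adjusted p = 0.0022). LOC100679758, higher in F3 diploids, was lower in F15 diploids by 0.87 (SE 0.14, adjusted p = 0.017), and the difference was 4.90 ± 0.61 (adjusted p = 0.00031). Mrjpl3 averaged 54.3, 162, 298 and 139 CPM in the same order as CPR35, with a difference of 2.68 ± 0.50 (adjusted p = 0.0072), but its own effect was not called at F3 with all libraries (adjusted p = 0.060) or at F15 (adjusted p = 0.068). Creb (−0.92 ± 0.16, adjusted p = 0.0043), Cctgamma (1.03 ± 0.17, adjusted p = 0.0033), Y-b (1.05 ± 0.21, adjusted p = 0.0098) and 6 other named genes were also called. Without D13 all 15 were called with the same sign. Of the 15 calls, 11 held whichever of the 20 libraries was left out. CYP6CK11, CYP6CK6, CYP4AB8 and Farsb were lost in 13, 10, 8 and 4 of the 20 fits (adjusted p from 0.050 to 0.088), D104, D114 and D4 being among them for all 4 genes. Generation, culture time and any difference in handling between F3 and F15 cannot be told apart.

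**Figure D5:**
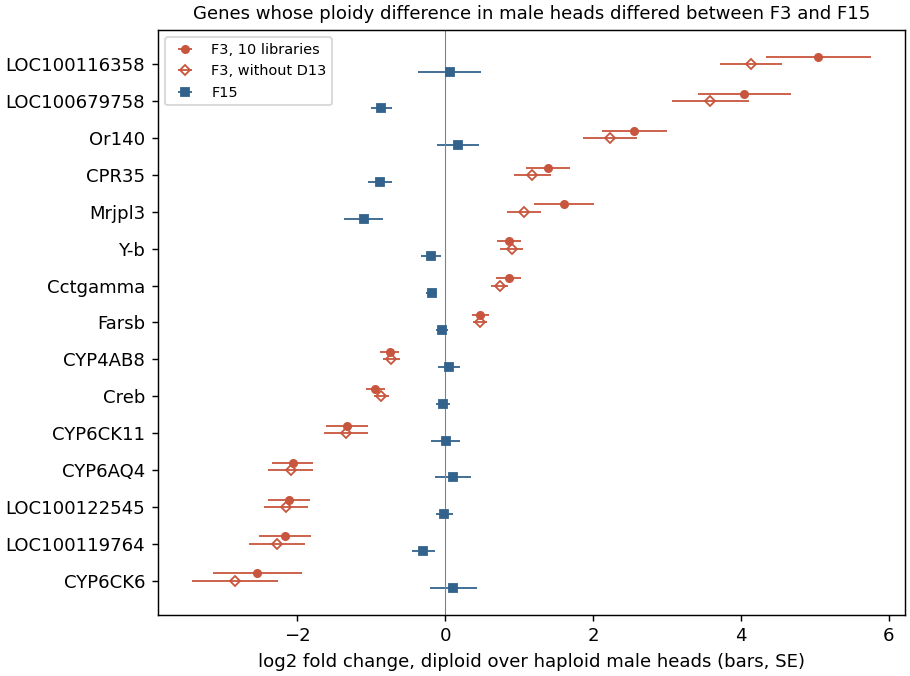
Log2 fold change of diploid over haploid male heads (x axis, bars are SE) at F3 with all libraries, at F3 without D13 and at F15, for the 15 named genes whose F3 and F15 effects differed. For each gene the F3 estimates with and without D13 lie on the same side of 0, and the F15 estimates lie near 0 or, for CPR35, Mrjpl3 and LOC100679758, on the other side.

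A diploid male has the chromosome number of a female, and the genes that moved in F3 diploid heads were set beside a difference between the sexes at equal ploidy. F14 diploid female heads against F15 diploid male heads, which share no library with the F3 groups, gave 2372 of 10564 genes called (22.5%), 1061 higher in females (10%) and 1311 lower (12.4%), and 1910 to 2439 with 1 library left out, lowest without D92 and highest without D95. Sex and generation number differ together in this comparison. Of the genes higher in F3 diploid heads, 30.8% were higher in females and 9.81% lower, against 9.91% and 12.7% of all. Of the genes lower in F3 diploid heads, 43% were lower in females and 8.23% higher. With the lists taken without D13, 23.7% of the higher genes were higher in females and 9.17% lower, and 33.3% of the lower genes were lower in females and 9.58% higher. Single genes went either way. CYP6CK11, lower in F3 diploid males, was also lower in females, at a mean of 0.0374 CPM against 18.2 CPM in the F15 diploid males. CYP6AQ4 was lower in females by 3.42 (SE 0.37). SP137, higher in F3 diploid males, was lower in females by 4.07 (SE 0.46), and the adjusted p was 0.00016 or less for all 3. Tra was higher in females by 2.39 ± 0.17 (adjusted p = 3.8e-06), the opposite of its direction in F3 diploid males other than D13.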

How the data were processed

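Per the labels' protocols, libraries were prepared from poly(A) RNA (NEBNext Ultra). The submitters' processing notes name STAR 2.7.11a and RSEM 1.3.1, and the genome build is not given in the sources used here. As data tables, the authors deposited expected counts for 14621 genes and TPM for 14613 genes. Of the expected counts, 17.8% were not whole, and all were rounded. Gene symbols came from the RefSeq table of Nvit_psr_1.1, in which 14621 of 14621 identifiers were found.

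In R 4.3.3, edgeR 4.0.16 was run with TMM scaling, filterByExpr (minimum count 10, minimum total 15), robust quasi-likelihood F tests and Benjamini-Hochberg adjustment over all genes tested. The F3 comparison was fitted on its 10 libraries alone. SE is the log2 fold change divided by the root of F. Alternatives used limma 3.58.1 (voom with library weights, or log2 of TPM plus 1 or 0.1 with a mean TPM of at least 1), DESeq2 1.42.0, other scalings and filters, and left-out libraries. Transcript length was taken from the ratio of counts to TPM. The scripts' tests were checked on simulated data. No pair of libraries within an F3 head group looked like 1 library entered under 2 names (over 20 pairs, chi-square divided by its degrees of freedom was at least 29.7). Summed over genes, the spread between libraries was thus above counting error, which need not hold for genes with few counts.

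Genes named were called genes with a symbol, at least 5 CPM on average in the higher group, and no overlap (up to 8 each way), up to 4 called members of each list, fixed genes (Tra, Dsx, Fru, Pdf, Akhr, ACP, Lop1, Syt1 and oskar), and, added later, the other called genes with a symbol, 4 LOC genes and, by the list rule, calls without D13. The samples, lists and alternatives were chosen with earlier results of these data known. The lists were rewritten after the gene table was seen, because it holds no product names. No strand setting is given, so reads of overlapping antisense genes cannot be told apart. Some named genes are not reported here.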

Additional observations from a re-analysis of the deposited data

Results flagged for a closer look

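In groups of 5 libraries, 29 of 126 measures had 1 library far from the other 4 (Dixon's test, critical ratio 0.71), and that library was D13 in 22 of them. Chance flags about 1 in 20 groups, but many of the genes were named because they were called only once D13 was left out, so this rate is no comparison for D13. No cause was tested. Among genes, D13 was high in Tra (110 CPM), Pdf (364), ACP (160), Gr7 (3.58), CYP9P3 (52.2), CYP6AQ9 (19.8), GstS5 (497), GstS8 (61.1) and GstS3 (26.6). It was also high in CCE-A5 (194 CPM), TWDL1 (2.61), Cpap3-d1 (95.4), SP100 (6.29), Mrjpl5 (50.3), Mrjpl3 (371), Y-x1c (20.6), Cct7 (102.1) and LOC100116358 (1282), and cycB was at 0 CPM in it (0 counts, against 0.531 to 0.655 CPM in the other diploids). D13 stood apart in detected genes (11518), in the share of its 10 most abundant genes (11.3%) and in the summed hexamerin level (32.4 CPM).

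Among haploids, D4 was high in CYP6CK11 (38.5 CPM), D5 in Syx17 (105.3 CPM), D1A in ACP (70.5 CPM) and D1 in oskar (6.14 CPM) and in the summed germ line level of oskar and nanos (6.24 CPM). D1 was low in Dsx (104.6 CPM) and D1A in CCE-A8 (5.24 CPM).

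For 15 genes, 3 of them (CYP6CK11, Mrjpl3 and LOC100116358) also named above, the test of the difference itself called the ploidy effect different at F3 and F15 (log2, F3 minus F15). The difference was positive for LOC100116358 (4.96), LOC100679758 (4.90), Mrjpl3 (2.68), Or140 (2.37), CPR35 (2.26), Y-b (1.05), Cctgamma (1.03) and Farsb (0.51). It was negative for CYP6CK6 (−2.67), CYP6AQ4 (−2.18), LOC100122545 (−2.11), LOC100119764 (−1.88), CYP6CK11 (−1.35), Creb (−0.92) and CYP4AB8 (−0.81).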

How the results depend on the processing

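No paired analysis was possible because the labels number the libraries with no number shared between groups. The F3 comparison (219 higher, 159 lower) gave 213 and 166 with RLE size factors and 217 and 156 at a mean of at least 1 CPM, and 278 calls, 61.5% of them higher, without a filter. It gave 260 and 94 with upper quartile scaling, which moved the median of all genes to 0.11 and the share of higher calls from 57.9% to 73.4%. DESeq2 gave 729 and 544, 4 groups in 1 fit 1086 and 694, voom with library weights (0.048 for D13) 1330 and 1219, and limma on log2 TPM 133 and 75 (pseudocount 1) or 124 and 67 (0.1), with medians of −0.16 and −0.19. With 1 library left out, the counts ran from 24 to 692 higher and 24 to 580 lower. Chosen after the data were seen, fits without D13 gave 930 and 960 (DESeq2), 662 and 330 (TPM) and 877 and 1085 (4 groups), where the larger side changed, and 328 to 842 and 226 to 713 with 1 more library left out. The differences between F3 and F15 (250 positive, 143 negative) came to 225 and 182 with RLE, 519 and 402 with DESeq2, 910 and 762 with voom, and 142 to 379 and 72 to 486 with 1 library left out. With 1 library left out, the count of F15 heads (128) ran from 17 to 426, that of F3 abdomens (2158) from 1495 to 2354 and that of the late sexes (2372) from 1910 to 2439. ACP (0.32) was the single named gene called with the opposite sign: −0.77 by DESeq2, −0.79 with 4 groups, and −0.48 without D1A, all without D13, and it ran from −0.84 to 0.59 over the fits with libraries left out. The causes of these differences were not tested.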

Other observations

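Genes that changed lay next to each other on the reference more often than all tested genes. Of the 219 higher genes, 8.68% had an adjacent tested gene called in the same direction, against 4.09% of all tested genes with such a neighbour, and of the 159 lower genes 7.55% against 2.99%. Without D13 the values were 16.5% against 12.6% for higher genes and 17.9% against 10.6% for lower genes. Without D13 the P450 gene CYP6CK6, whose own test is not read here, and the carboxylesterase genes CCE-A9 and CCE-A8 formed 1 of the runs of at least 3 adjacent lower genes. Gene order came from the Nvit_psr_1.1 annotation, and reads shared between similar neighbours were not examined.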
